A study of Homo sapiens with 6 samples.

Results

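The TGF-beta pathway was followed through 10 genes, found by their symbols in a table of mRNA levels. They are the ligands TGFB1 and TGFB2, the receptors TGFBR1 and TGFBR2, the signal transducers SMAD2, SMAD3 and SMAD4, the inhibitors SMAD7 and SKIL, and the secreted target gene TGFBI. All 10 were found among 19912 rows. RNA came from 6 samples of the human pancreatic cancer line Panc-1 with a gemcitabine resistance phenotype. Of these, 3 carry the treatment label shSRSF3 and 3 the label ctrl; both groups share the resistant background, and the labels name no clone, culture or drug exposure during the experiment. The series title concerns the splicing factor SRSF3 and resistance to gemcitabine, a nucleoside drug.

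TGF-beta ligands are secreted in a latent form and, once released, bring together a type II and a type I receptor kinase. The type I receptor phosphorylates SMAD2 and SMAD3, which join SMAD4 and regulate genes in the nucleus. SMAD7 and SKIL restrain the pathway and are themselves induced by it, a negative feedback. In pancreatic carcinoma SMAD4 is frequently lost, and the pathway is known both for arresting growth and for driving epithelial cells towards a mesenchymal state.

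SRSF3 itself was not detectably lower in the libraries labelled knockdown, so each direction given here is that of the label. Its level was 36.9, 37.1 and 38.6 FPKM (fragments scaled to gene length and to the library's total) in the libraries labelled knockdown, against 37.0, 39.6 and 39.2 FPKM in controls. Its log2 change, knockdown over control, was -0.04 (SE 0.05, limma adjusted p = 0.612), with a 95% interval from -9.68% to 4.92%. Scaled to the summed FPKM the change of SRSF3 was -0.173 (limma adjusted p = 0.153). It was -0.125 without mitochondrial mRNAs in that sum and -0.118 after quantile normalization. SRSF3 did not pass under any of the 17 alternatives run for it. The recovered library totals ran from 24558238 to 27351642 fragments. Deposited FPKM summed to 336887, 308101 and 287148 in knockdown libraries 1 to 3, against 275359 to 285701 in controls. The 13 mitochondrial mRNAs made up 32.1%, 27.5% and 25.6% of that sum in knockdown libraries 1 to 3, against 25.6% to 26.2% in controls, so knockdown library 1 stood apart from the rest.

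The epithelial markers KRT8, KRT18, KRT19, EPCAM, CDH1 and KRT7 together summed to between 3730 and 4690 FPKM in the libraries labelled knockdown and between 3569 and 3780 FPKM in controls. Of these, 5 were tested. By limma 0 passed after adjustment and 2 reached an unadjusted p under 0.05, and voom called 1. Those 2 differed in opposite directions, each without overlap between groups. KRT18 averaged 1733 ± 296 FPKM in the libraries labelled knockdown and 1391 ± 42.8 FPKM in controls (limma adjusted p = 0.0923). CDH1 averaged 75.5 ± 4.06 FPKM in the libraries labelled knockdown and 82.3 ± 1.29 FPKM in controls (limma adjusted p = 0.128). The ductal keratin KRT7 reached no more than 0.200 FPKM in the libraries labelled knockdown and 0.241 FPKM in controls. Vimentin (VIM), an intermediate filament that Panc-1 is known to express, reached no more than 0.0389 FPKM in the libraries labelled knockdown and 0.0152 FPKM in controls. Fibronectin (FN1), a matrix target of TGF-beta, averaged 0.131 FPKM in the libraries labelled knockdown and 0.138 FPKM in controls. Whether these libraries match the labelled line was not tested. Summed over 6 fibroblast markers the level was at most 0.423 FPKM in the libraries labelled knockdown and 0.446 FPKM in controls, and the immune markers PTPRC and LYZ were listed at 0 in all 6 libraries. Of the immune and endothelial lists, 1 gene (CD14) passed the filter and did not pass the test. As in any bulk sample, fewer cells of a kind and less RNA per cell cannot be told apart.

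TGFB1, the main ligand, was by far the most abundant of the 10 genes and the only one of the 9 tested that passed. It measured 152, 148 and 131 FPKM in the libraries labelled knockdown, against 125, 122 and 110.2 FPKM in controls. All values labelled knockdown lay above all control values, and library 3 was the lowest of each group. The means were 143 ± 11.2 FPKM in the libraries labelled knockdown and 119 ± 7.74 FPKM in controls (SD, n = 3 each), a level that ranked at 243 of 19912 rows. The log2 change was 0.27 (SE 0.07, 95% interval from 0.11 to 0.42, limma adjusted p = 0.0284). An exact two-sided permutation test of the 6 values gave p = 0.1, the smallest that 3 against 3 can give.

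The size of the TGFB1 change depends on how the libraries are scaled. When each library was scaled to the summed FPKM, TGFB1 averaged 137 FPKM in the libraries labelled knockdown and 125 FPKM in controls (log2 change 0.13, limma adjusted p = 0.126), where 9.47% of all tested genes passed. When only the sum without mitochondrial mRNAs was used, the log2 change was 0.18 and the adjusted p = 0.0417. There 1731 of 10823 tested genes passed. The call was lost with no filter on low genes (adjusted p = 0.0863) and without knockdown library 1 (0.0519) or 2 (0.0990) or control library 1 (0.0507), 2 (0.0792) or 3 (0.127), with log2 changes of 0.21 to 0.33 when 1 library was left out. Within a group TGFB1 varied more than counting alone gives: the coefficient of variation was 7.77% in the libraries labelled knockdown and 6.50% in controls, where 9763 to 12604 fragments per library give 0.912% and 1.00%.

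TGFB2, a ligand with its own gene and the same receptors, was far lower but differed more in proportion. It measured 0.712, 0.616 and 0.569 FPKM in the libraries labelled knockdown, against 0.411, 0.334 and 0.213 FPKM in controls. These values came from 94, 79 and 80 fragments in the libraries labelled knockdown and 52, 44 and 30 fragments in controls. The groups did not overlap, and the mean in the libraries labelled knockdown was 1.98-fold that of controls. An exact two-sided permutation test gave p = 0.1, the smallest possible with 3 against 3.

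TGFB2 averaged below the filter of 0.5 FPKM over the 6 libraries and so was not among the tested genes. In a fit without the filter its log2 change was 0.31 on the log2(FPKM + 1) scale, which compresses low genes (limma adjusted p = 0.0418; 5.88% of 16315 genes passed there). Limma voom on recovered fragment numbers was also run on genes with a mean of at least 10 fragments, a choice made after seeing the data. There the log2 change of TGFB2 was 1.03 (SE 0.24, adjusted p = 0.0137; 15.6% of 12447 genes passed). Without control library 3, which held the fewest TGFB2 fragments, voom gave a log2 change of 0.76 and an adjusted p = 0.0893, and without any one of the others the adjusted p ran from 0.00775 to 0.0442. TGFB2 overlaps the lncRNA genes TGFB2-AS1 and TGFB2-OT1 in RefSeq. Whether counting used the strand is not stated, so their reads cannot be told apart from those of TGFB2. TGFB2-AS1 had 3, 13 and 5 fragments in the libraries labelled knockdown and 1, 4 and 4 in controls, and TGFB2-OT1 was listed at 0 throughout. The third ligand, TGFB3, was also below the filter, at 0.123 ± 0.076 FPKM in the libraries labelled knockdown and 0.262 ± 0.048 FPKM in controls (SD, n = 3 each), the opposite order, on 7 to 38 fragments a library (exact two-sided permutation p = 0.1). Within each library TGFB2 was 0.00469, 0.00417 and 0.00435 of TGFB1 in the libraries labelled knockdown, against 0.00329, 0.00274 and 0.00193 in controls, with no overlap (exact two-sided permutation p = 0.1, adjusted 0.133 over the 4 ratios examined).

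The 2 ligand genes that stood higher have unlike promoters, and the 250 bases before each start are shown for that contrast. They are taken from RefSeq (GRCh38.p14), which gives 1 start for each gene, and written 5′ to 3′ on the gene's own strand. Capitals mark GC boxes (GGGCGG on either strand) in TGFB1, on the minus strand of chr19:41353923-41354172, and the TATA box (TATAAA) and SMAD boxes (CAGAC on either strand) in TGFB2, on the plus strand of chr1:218345086-218345335.
TGFB1: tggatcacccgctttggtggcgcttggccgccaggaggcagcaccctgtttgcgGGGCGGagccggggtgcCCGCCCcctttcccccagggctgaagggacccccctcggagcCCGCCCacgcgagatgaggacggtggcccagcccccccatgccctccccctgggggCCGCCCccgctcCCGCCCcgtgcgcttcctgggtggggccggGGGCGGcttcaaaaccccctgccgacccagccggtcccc
TGFB2: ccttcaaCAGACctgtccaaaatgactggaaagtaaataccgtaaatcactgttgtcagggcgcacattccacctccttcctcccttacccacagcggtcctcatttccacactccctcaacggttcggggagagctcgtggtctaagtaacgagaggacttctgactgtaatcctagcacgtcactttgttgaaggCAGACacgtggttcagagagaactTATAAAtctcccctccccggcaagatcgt
The TGFB1 window held 6 GC boxes, no TATA box and no SMAD box, with 76.8% G and C. The TGFB2 window held no GC box, 1 TATA box and 2 SMAD boxes, with 50.4% G and C, where the median of 35116 promoters was 58%. At least 1 GC box was present in 42.6% of all promoters, a TATA box in 10.7% and a SMAD box in 38% of them. As many as 6 GC boxes were found in 2.22%. Neither window held the palindrome GTCTAGAC, found in 0.182% of promoters. A match in these letters is not a binding site, and no factor was measured.

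**Figure D1:**
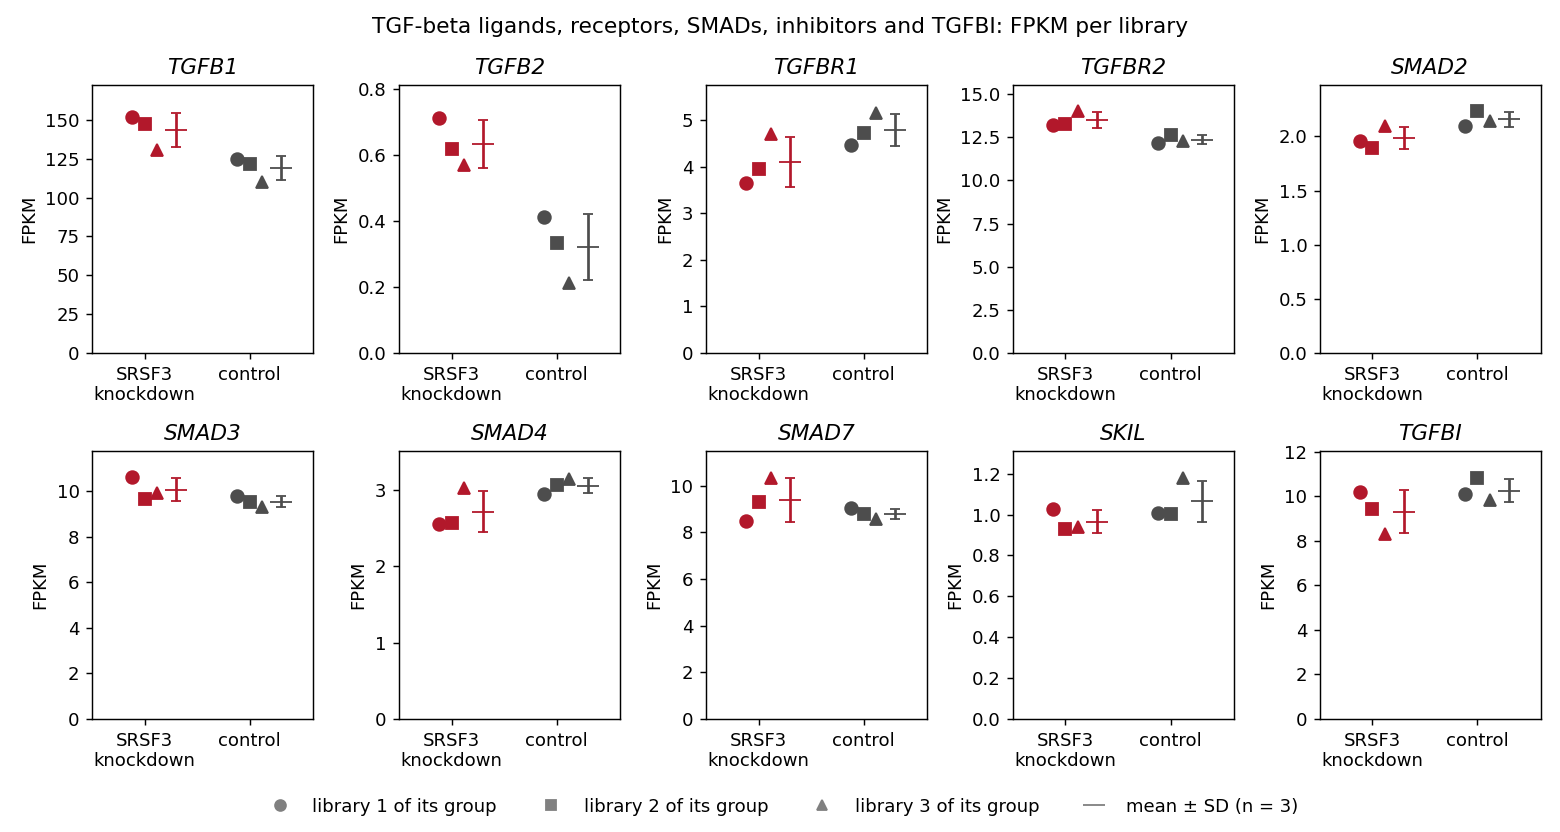
FPKM (vertical axis, from 0) of each of the 10 genes in the libraries labelled SRSF3 knockdown (red) and in controls (grey), with a marker per library and the mean ± SD of 3. TGFB1 and TGFB2 lie higher in all 3 libraries labelled knockdown, with no overlap, and most of the other genes overlap between groups.

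The receptors leaned in opposite directions and neither passed. TGFBR2, the type II receptor that binds the ligand first, measured 13.2, 13.3 and 14.0 FPKM in the libraries labelled knockdown, against 12.2, 12.6 and 12.3 FPKM in controls. These groups did not overlap, but the log2 change was only 0.12 (SE 0.05, limma adjusted p = 0.128), and it was -0.01 when libraries were scaled to the summed FPKM. TGFBR1, the type I receptor kinase, measured 3.64, 3.96 and 4.69 FPKM in the libraries labelled knockdown, against 4.47, 4.73 and 5.16 FPKM in controls. Knockdown library 3 lay within the control range. The log2 change of TGFBR1 was -0.19 (SE 0.08, limma adjusted p = 0.138), and without knockdown library 3 it was -0.27 (adjusted p = 0.0227).

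Taken as a ratio within each library, which no scaling between libraries can alter, the receptors did not overlap between the groups. Of single tested genes 37.9% did not overlap either, and no such share was worked out for ratios. TGFBR2 was 3.63, 3.35 and 2.99 times TGFBR1 in the libraries labelled knockdown, against 2.72, 2.67 and 2.39 times in controls. The ratio was 1.28-fold higher on average, and an exact two-sided permutation test gave p = 0.1, the smallest possible, or 0.133 adjusted over the 4 ratios examined. Within each group the ratio was highest in library 1 and lowest in library 3, as was the summed FPKM. A ratio shows unequal change and does not say which receptor moved.

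Of the SMADs that carry the signal, 0 of 3 passed in limma, 0 had an unadjusted p under 0.05 and 0 passed by voom. SMAD2 measured 1.96, 1.90 and 2.09 FPKM in the libraries labelled knockdown, against 2.10, 2.23 and 2.15 FPKM in controls. Its groups missed overlapping by a narrow gap, and limma gave an adjusted p = 0.363 for a change of -0.08 (log2, SE 0.06). SMAD3, the closely related second substrate of the receptor, measured 10.6, 9.65 and 9.93 FPKM in the libraries labelled knockdown, against 9.78, 9.53 and 9.29 FPKM in controls (log2 change 0.07, adjusted p = 0.385). Its groups overlapped, and its change was -0.05 when scaled to the summed FPKM. SMAD3 overlaps the lncRNA gene SMAD3-AS1 in RefSeq, whose reads cannot be told apart from it here. SMAD4, the shared partner, measured 2.56, 2.56 and 3.02 FPKM in the libraries labelled knockdown, against 2.95, 3.07 and 3.15 FPKM in controls (log2 change -0.13, adjusted p = 0.207). Only knockdown library 3 of SMAD4 lay within the control range, and every library held SMAD4 reads, at 837 to 1130 fragments.

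The SMAD3 to SMAD2 ratio was 5.44, 5.09 and 4.74 in the libraries labelled knockdown, against 4.66, 4.27 and 4.33 in controls, without overlap (exact two-sided permutation p = 0.1, adjusted 0.133 over the 4 ratios). The height of this ratio, unlike its difference between groups, rests on gene length. The deposited values imply a length of 36366 bases for SMAD2 and 9113 bases for SMAD3. In fragments the gap was smaller, at 2188 to 2483 per library for SMAD3 and 1717 to 2135 for SMAD2. Transcript lengths were not measured here.

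The feedback inhibitors did not pass either. SMAD7, which blocks the type I receptor, measured 8.47, 9.28 and 10.3 FPKM in the libraries labelled knockdown, against 9.02, 8.77 and 8.58 FPKM in controls (log2 change 0.08, SE 0.07, limma adjusted p = 0.448). Knockdown library 1 was the lowest of the 6 and knockdown library 3 the highest, and the change was -0.04 when scaled to the summed FPKM. SKIL, a corepressor that binds SMADs, measured 1.03, 0.929 and 0.941 FPKM in the libraries labelled knockdown, against 1.01, 1.01 and 1.18 FPKM in controls (log2 change -0.07, adjusted p = 0.491). SMAD7 over the sum of SMAD2 and SMAD3 was 0.673, 0.803 and 0.860 in the libraries labelled knockdown, against 0.760, 0.746 and 0.750 in controls (exact two-sided permutation p = 0.7). The controls were nearly equal and the libraries labelled knockdown spread on both sides of them.

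TGFBI, a secreted matrix protein named for its induction by TGF-beta, measured 10.2, 9.44 and 8.32 FPKM in the libraries labelled knockdown, against 10.1, 10.8 and 9.83 FPKM in controls. The log2 change was -0.13 (SE 0.07, limma adjusted p = 0.233), with overlap between the groups. Scaled to the summed FPKM it was -0.25 (adjusted p = 0.0379) and, without mitochondrial mRNAs in the sum, -0.21 (adjusted p = 0.0437). Those scalings also moved the median log2 change of all tested genes, to -0.09 and -0.05. Of all genes called there, 875 of 1025 and 1208 of 1731 were lower.

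**Figure D2:**
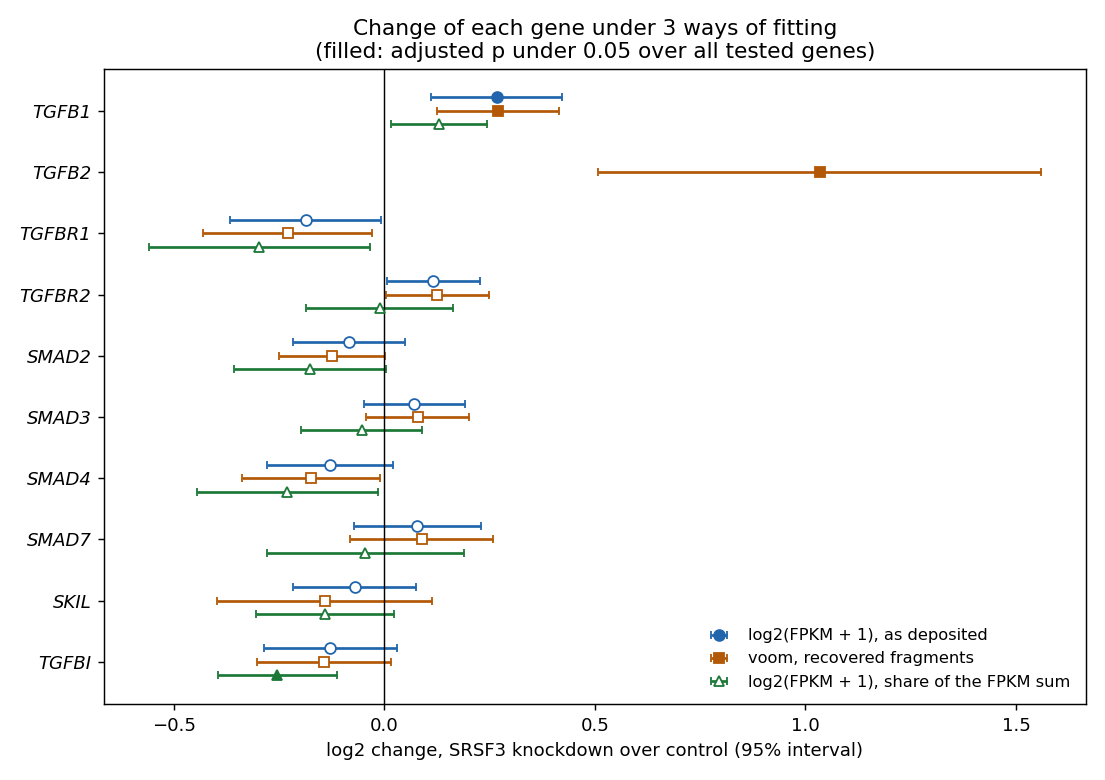
The log2 change of each gene (horizontal axis, libraries labelled knockdown over control, with 95% intervals) in 3 fits, where filled markers have an adjusted p under 0.05 over all tested genes. TGFB1 passes in the deposited scale and by voom on genes with a mean of at least 10 fragments, but not as a share of the FPKM sum. TGFB2 enters that voom fit only, and TGFBI passes only as a share of the sum.

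In all, 1 of the 9 tested genes passed in limma and was higher, 0 were lower (1 at an unadjusted p under 0.05, TGFBR1, and 0 by voom) and 8 did not pass, against 16.8% of all 10823 tested genes that passed (10.9% higher and 5.91% lower). Groups did not overlap for TGFB1, TGFBR2 and SMAD2, 3 of the 9, and in 37.9% of all tested genes. The median log2 change of the 9 was -0.07, beside 0.02 over all tested genes. These counts are near the background or below it.

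By level, the genes fell into the same order in most places in both groups. After TGFB1 came TGFBR2, at 13.5 ± 0.452 FPKM in the libraries labelled knockdown and 12.4 ± 0.236 FPKM in controls (SD, n = 3 each). SMAD3, SMAD7 and TGFBI followed within 8.32 to 10.6 FPKM in the libraries labelled knockdown, where their ranges overlapped, and within 8.58 to 10.8 FPKM in controls, where TGFBI, SMAD3 and SMAD7 came in that order without overlap. TGFBR1, SMAD4, SMAD2, SKIL and TGFB2 followed in that order in both groups, with no overlap between neighbours within a group. This order rests on the gene lengths that the values imply, such as 36366 bases for SMAD2 and 6844 for TGFBR1. In fragments a library SMAD2 had 1717 to 2135, above TGFBR1 (639 to 965) and SMAD4 (837 to 1130).

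**Figure D3:**
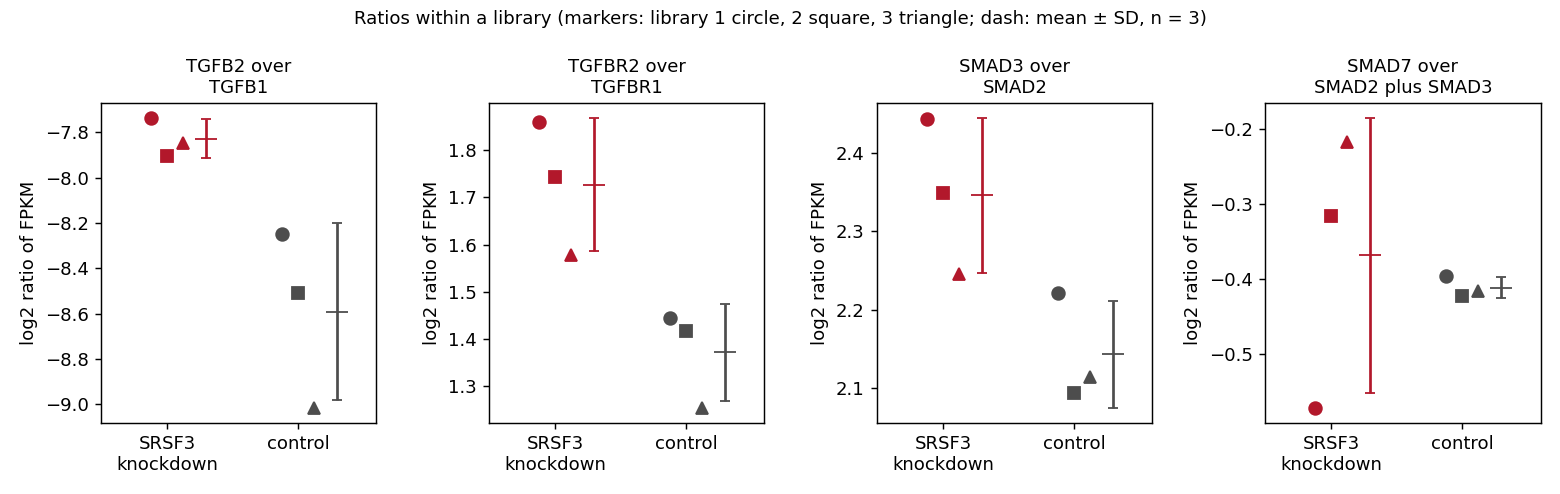
Log2 ratios of FPKM within each library (vertical axes, differing between panels and not from 0) for the libraries labelled SRSF3 knockdown (red) and controls (grey), with the mean ± SD of 3. The first 3 ratios do not overlap between groups, and SMAD7 over SMAD2 plus SMAD3 does.

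The wider pathway was described from 97 further genes in lists, of which 62 were tested, 13 were higher, 3 were lower and 46 did not pass, against 10.9% higher and 5.91% lower over all tested genes. Their median log2 change was 0.04, beside 0.02 over all tested genes. The counts of each list stand against that same background. Among other ligands and the latency machinery 1 of 7 tested genes was higher and 0 lower: THBS1, thrombospondin, which can activate latent TGF-beta, averaged 12.2 ± 0.633 FPKM in the libraries labelled knockdown and 10.6 ± 0.173 FPKM in controls (log2 change 0.18, limma adjusted p = 0.0394). The convertase FURIN, which cleaves the ligand precursor, stood at 85.1 ± 2.90 FPKM in the libraries labelled knockdown and 81.1 ± 4.09 FPKM in controls (limma adjusted p = 0.406). Of 7 other receptors 0 passed in limma, 1 (ACVR1) had an unadjusted p under 0.05 and 0 passed by voom. SMAD1 and SMAD5, which carry BMP signals, did not pass, with 0 at an unadjusted p under 0.05 and 0 by voom.

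Among activins, BMPs, GDFs and their antagonists, 3 of 8 tested genes were higher and 0 lower (by voom also 3 and 0; 1 was lower at an unadjusted p under 0.05 in limma). The list median was 0.02, as over all tested genes. GDF15, a stress-induced member of the superfamily that signals through another receptor, measured 857, 859 and 822 FPKM in the libraries labelled knockdown, against 596, 569 and 538 FPKM in controls (log2 change 0.58, SE 0.07, limma adjusted p = 7.98e-04). This exceeded TGFB1 several times over and passed under all 17 alternatives run for it. BMP4, a BMP ligand, averaged 259.8 ± 3.49 FPKM in the libraries labelled knockdown and 227 ± 6.95 FPKM in controls (log2 change 0.19, limma adjusted p = 0.0342). GDF11, which signals through SMAD2 and SMAD3, averaged 3.99 ± 0.253 FPKM in the libraries labelled knockdown and 3.28 ± 0.0139 FPKM in controls (log2 change 0.22, limma adjusted p = 0.0314).

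Among negative regulators, 4 of 11 tested genes were higher and 1 lower, with a median log2 change of 0.13, beside 0.02 over all tested genes. Scaled to the summed FPKM, the 4 higher ones did not pass and the lower one did. SKI, the relative of SKIL, averaged 31.1 ± 0.768 FPKM in the libraries labelled knockdown and 27.5 ± 0.906 FPKM in controls (log2 change 0.18, limma adjusted p = 0.0326). TGIF2, a homeobox repressor that binds SMADs, averaged 0.740 ± 0.0338 FPKM in the libraries labelled knockdown and 0.459 ± 0.102 FPKM in controls (log2 change 0.26, adjusted p = 0.0352). TGIF2 rested on 33 to 79 fragments a library. FKBP1A, which binds and restrains the type I receptor, rose by 0.17 and STRAP, a receptor-associated protein, by 0.16 on the log2 scale. WWP1, a ubiquitin ligase, fell by 0.19 on the log2 scale (limma adjusted p = 0.0365). Of 10 positive regulators 1 passed: USP4, a deubiquitinase of TGFBR1, fell by 0.22 on the log2 scale (limma adjusted p = 0.0296).

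Of 17 tested target genes of TGF-beta, 5 were higher and 1 lower, with a median log2 change of 0.08, beside 0.02 over all tested genes. By voom 7 passed, 2 of them lower. TAGLN, an actin-binding protein of smooth muscle, measured 2.88, 3.31 and 3.30 FPKM in the libraries labelled knockdown, against 1.80, 1.42 and 1.61 FPKM in controls (log2 change 0.68, SE 0.07, limma adjusted p = 5.42e-04), and passed under all 16 alternatives run for it. SNAI1, a repressor of CDH1, averaged 1.31 ± 0.268 FPKM in the libraries labelled knockdown and 0.661 ± 0.176 FPKM in controls (log2 change 0.48, limma adjusted p = 0.0128). SNAI1 rested on 19 to 65 fragments a library, and voom at 10 fragments gave it a log2 change of 0.97. CTGF, a matricellular protein, averaged 2.22 ± 0.241 FPKM in the libraries labelled knockdown and 1.56 ± 0.148 FPKM in controls (log2 change 0.33, limma adjusted p = 0.0162).

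MYC, which TGF-beta is known to repress in epithelial cells, and the cell cycle inhibitor CDKN1A, which it is known to induce, were both higher. MYC averaged 53.3 ± 1.12 FPKM in the libraries labelled knockdown and 42.2 ± 0.882 FPKM in controls (log2 change 0.33, limma adjusted p = 0.00204). CDKN1A averaged 116 ± 4.65 FPKM in the libraries labelled knockdown and 101 ± 2.07 FPKM in controls (log2 change 0.20, limma adjusted p = 0.0261). BHLHE40, a transcription repressor, fell by 0.25 on the log2 scale (adjusted p = 0.0132).

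With 1 library left out, each of the 16 genes called outside the 10 kept its direction, at a size close to the full one: the log2 change of BMP4 was 0.17 to 0.22, that of GDF11 0.18 to 0.25 and that of BHLHE40 -0.27 to -0.21. Some calls were lost all the same. Leaving out a control library gave 647 to 1082 calls over the table, against 1819. Leaving out knockdown library 1, 2 or 3 gave 1640, 844 and 2742 calls. GDF15, TAGLN and MYC passed whichever library was left out. SNAI1 missed without knockdown library 2 (adjusted p = 0.0535) and CTGF without control library 3 (0.0767). BHLHE40 missed without any one control library (0.0504 to 0.0533). USP4 missed without knockdown library 1 or control library 2 or 3. WWP1 missed without any library but knockdown 3, TGIF2 and THBS1 without any but knockdown 1, and GDF11 without knockdown 1 or any control. BMP4, SKI, FKBP1A, STRAP and CDKN1A missed without knockdown library 2 or any control.

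The scaling to the summed FPKM moved the median of all tested genes to -0.09 (log2), against 0.02 as deposited, and the share of calls that were higher to 14.6%, against 64.8% as deposited. It took away the calls of THBS1 (adjusted p = 0.668), BMP4 (0.527), GDF11 (0.319), SKI (0.657), FKBP1A (0.695), STRAP (0.808), TGIF2 (0.119), CTGF (0.133), CDKN1A (0.525) and MYC (0.0900). Those of GDF15, TAGLN, SNAI1, BHLHE40, WWP1 and USP4 passed there too. With mitochondrial mRNAs left out of that sum, MYC passed (limma adjusted p = 0.00953), the other 9 did not, and 30.2% of calls were higher. A fit with no filter on low genes lost the calls of SNAI1 (limma adjusted p = 0.0579), CTGF (0.0584), WWP1 (0.0593) and USP4 (0.0673). It also lost those of THBS1 (limma adjusted p = 0.0661), BMP4 (0.0565) and GDF11 (0.0725). Quantile normalization lost those of THBS1 (limma adjusted p = 0.0770), BMP4 (0.114), SKI (0.119), CDKN1A (0.182), FKBP1A (0.323) and STRAP (0.586).

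**Figure D4:**
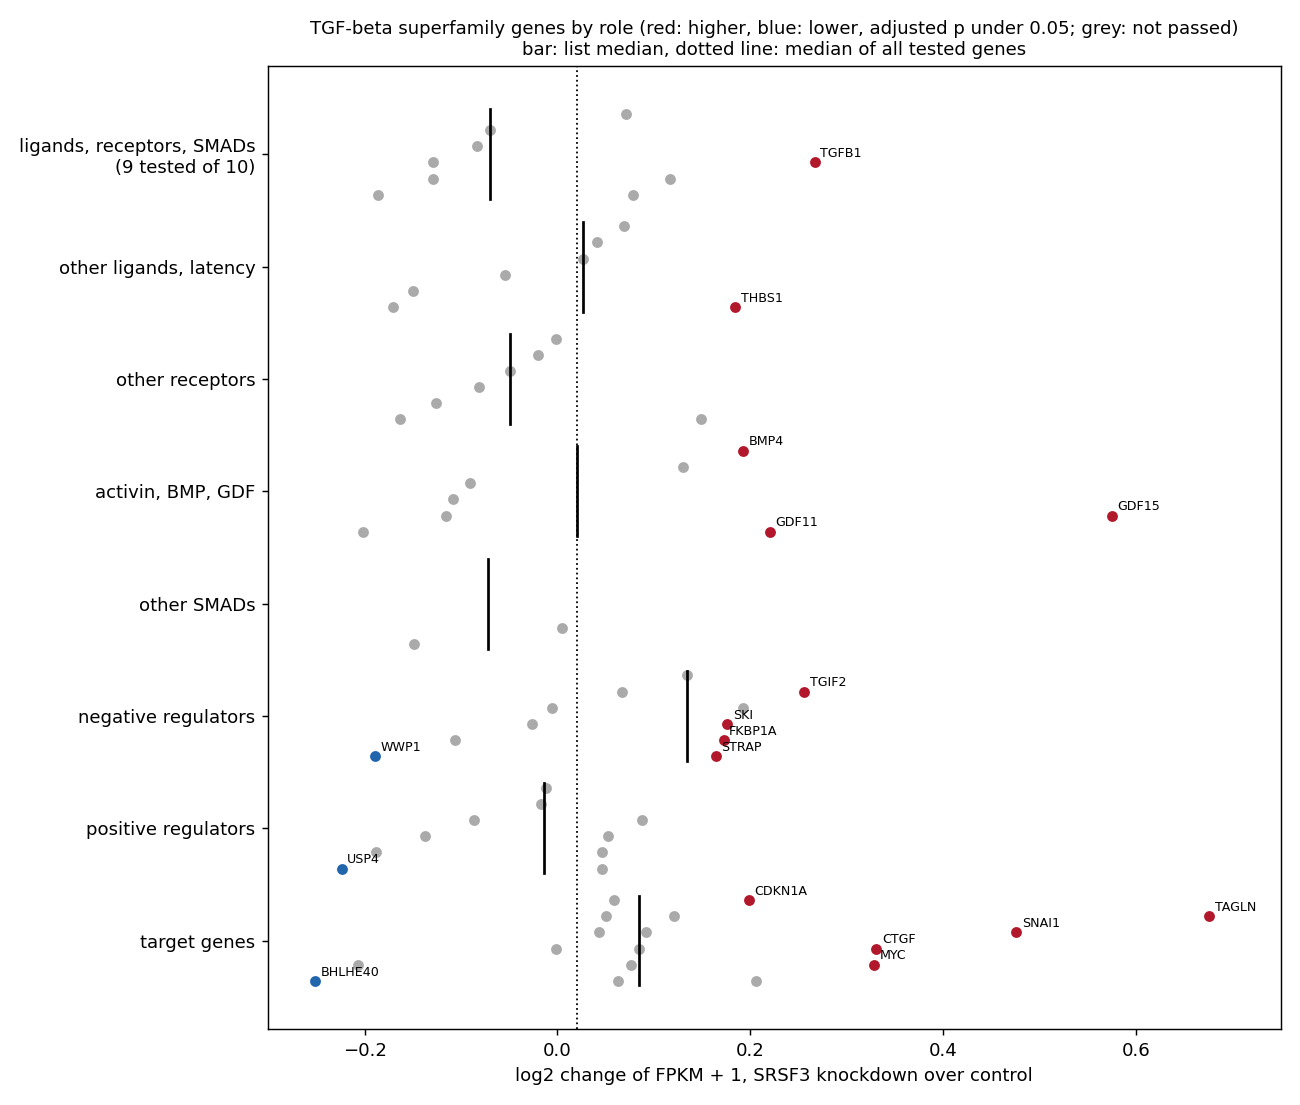
Log2 change of FPKM + 1 (horizontal axis, libraries labelled knockdown over control) for tested genes grouped by role, each point a gene, with list medians as bars and the median of all tested genes dotted. On this scale, which compresses low genes, TAGLN at 0.68 and GDF15 at 0.58 lie farthest to the right. TGFB1 is the only coloured point in the top group.

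The pattern of TGFB1 over the 6 libraries was compared with that of every tested gene. The closest were ERI3 (Pearson r = 0.998), ADGRE5 (r = 0.996) and G6PC3 (r = 0.996). With 6 libraries and 10823 genes, coefficients of this height are a description only. ERI3 measured 29.5, 28.9 and 26.2 FPKM in the libraries labelled knockdown and 25.2, 24.6 and 23.2 FPKM in controls. In each of these genes, as in TGFB1, library 1 was the highest and library 3 the lowest of each group, which is also the order of the summed FPKM in both groups.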

How the data were processed

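The authors deposited FPKM values per gene symbol and library. The tools listed, per the submitters' processing notes, are HISAT2, StringTie, Cuffdiff and edgeR, without versions or the step each served. Genome build, annotation and strand setting: not given in the sources used here. Per the labels' protocols, poly-T selection and a stranded rRNA-depleted preparation were both described. Nothing in the labels says that replicates came from separate cultures, so p-values measure only the spread between these libraries.

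The mRNA table was fitted whole with limma 3.58.1 in R 4.3.3 (trend, two-sided, Benjamini-Hochberg over 10823 genes, threshold 0.05) on log2(FPKM + 1) for genes with a mean of at least 0.5 FPKM, with no rescaling between libraries. Fold changes are on that scale and understate low genes. Single values and the 4 ratios were compared by exact permutation tests. The values were whole multiples of 1 fragment, within 0.003, for 14776 of 14803 rows above 0 in at least 3 libraries (99.8%). All 10 genes were among them, and their fragment numbers were recovered with Python 3.11.15. The scripts were tested on simulated data. Intervals cover the spread between libraries.

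Genes named beyond the 10 were SRSF3, up to 4 members of each list past the threshold, and the 3 tested genes closest to TGFB1, the member past the threshold with the largest change (TGFB2 was not tested). VIM, FN1, KRT7, KRT18, CDH1, CD14, ACVR1, SMAD1, SMAD5, TGFB3, FURIN, CTGF, CDKN1A and STRAP were chosen after their values were seen. The members and lists were chosen with earlier results of these data known. CTGF is listed under its older symbol. Of the lncRNA table only the rows overlapping the 10 genes were used. Some withheld items are not reported here.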

Additional observations from a re-analysis of the deposited data

How the results depend on the processing

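The alternatives were a pseudocount of 0.1, no filter, a filter of 5 FPKM, median scaling, quantile normalization, robust empirical Bayes, each library left out, a replicate block and voom on recovered fragments. Both scalings to the FPKM sum, and voom on genes with a mean of at least 10 fragments, were chosen after seeing the data. Against 1819 calls over the table, the number was 960 with no filter, 1025 as a share of the summed FPKM, and 647 to 2742 with 1 library left out. It was 1731 of 10823 genes as a share of the sum without mitochondrial genes, and 1938 of 12447 with voom at 10 fragments. The 10 genes gave 1 call (TGFB1), 0 to 2 with 1 library left out, 2 with the replicate block (TGFB1 and TGFBR1, adjusted p = 0.0480), 2 with voom at 10 fragments (TGFB1 and TGFB2) and 2 as a share of the sum without mitochondrial genes (TGFB1 and TGFBI). With no filter the 1 call was TGFB2, and TGFB1 had an adjusted p = 0.0863. As a share of the summed FPKM it was TGFBI. Directions reversed, as a share of the sum, for TGFBR2 (-0.0109), SMAD3 (-0.0538, or -0.0086 without mitochondrial genes) and SMAD7 (-0.0449, or -0.00066). The log2 ratio of SMAD7 over SMAD2 plus SMAD3 was 0.04, and -0.0325 (without knockdown library 3) to 0.145 (without knockdown library 1) with 1 library left out. The other 3 ratios kept their direction in every alternative run. The cause of these changes was not tested. Same-numbered libraries had correlations of 0.0776, 0.0385 and 0.279 between their deviations, and differently numbered ones ran from -0.212 to 0.153. The numbers were not taken to pair the libraries, and the labels do not say whether a number marks a shared culture or day. The block moved the table's calls to 2323 and gave TGFB1 a limma adjusted p = 0.00662. Quantile normalization gave 50.3% of calls higher. TGFB2 had 30 to 94 fragments a library, and its coefficient of variation was 11.6% in the libraries labelled knockdown and 31.3% in controls, where counting alone gives 10.9% and 15.4%.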
